A study of Mus musculus with 24 samples.

Results

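Extracellular ATP and ADP act on a family of cell-surface receptors, the P2X receptors, which are ion channels opened by ATP, and the P2Y receptors, which couple to G proteins. Enzymes on the cell surface then degrade the nucleotides: the ectonucleoside triphosphate diphosphohydrolases (Entpd genes) remove phosphates from ATP and ADP, and ecto-5′-nucleotidase (Nt5e, also called CD73) converts the resulting AMP into adenosine, which acts on adenosine receptors such as those encoded by Adora1 and Adora2a. In brain, P2rx7, P2rx4 and P2ry12 are known for their roles in microglia, the resident macrophages, and Nt5e and Entpd1 are widely used as markers of cells that turn ATP into adenosine.

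The mRNA levels of 10 genes of this system (P2rx7, P2rx4, P2ry1, P2ry12, Entpd1, Entpd2, Entpd3, Nt5e, Adora1 and Adora2a) were described in cerebellum, brainstem and liver of mice with an expanded CAG repeat in Atxn2. The gene set was chosen by measured values of these same arrays, the lower P2rx7 in cerebellum and brainstem and the lower Entpd3 in cerebellum of the mutant mice, so those differences are given as values and not as test results. All probe sets whose platform annotation named 1 of the 10 genes, and no other gene, were taken: 15 probe sets of 8 genes, out of 45037 probe sets tested and 17097 named genes. P2rx7, P2rx4 and Nt5e each had 3 probe sets, Entpd1 had 2, and P2ry1, P2ry12, Entpd2 and Entpd3 had 1 each, while Adora1 and Adora2a, the adenosine receptors among the 10, had none in the annotation used and were not analysed here.

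The Atxn2 Knock-In mice (CAG42) were homozygous for an allele with 42 CAG repeats placed in the endogenous mouse Atxn2 gene, so that its own promoter drives it in every tissue, and wild type (WT) littermates served as controls. The allele was made in embryonic stem cells of a different inbred strain and the line was backcrossed for at least 8 generations into C57BL/6, the background of both groups. Around Atxn2, on the chromosome that also holds P2rx7 and P2rx4, the strain of the sequence was not examined. An effect of the repeat and an effect of linked sequence cannot be told apart there. The mice were 18 months old, their sex is not stated in the sources used here, and each tissue gave 4 CAG42 and 4 WT arrays, 24 in all. The values were RMA summaries on a log2 scale, which allow a probe set to be compared between arrays but not with another probe set. In these bulk samples, fewer cells of a type and less RNA per cell cannot be told apart.

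The tissue labels were checked against marker genes. All 5 measured cerebellar markers were higher in cerebellum than in brainstem and in liver, all 4 brainstem markers were higher in brainstem than in either other tissue, and all 6 liver markers were higher in liver than in cerebellum and 5 of them higher than in brainstem, Ttr being the exception. The array medians were between 4.42 and 4.62 in the brain regions and between 4.13 and 4.25 in liver, and the lowest correlation within a group was 0.954, between replicates 1 and 3 of WT liver, against 0.986 or more in the other groups. WT liver replicate 1 stood apart, with a median correlation of 0.964 to the rest of its group, against 0.985 or more for the other 3 WT livers. No probe set of Atxn2 passed the test between genotypes in any of the tissues.

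To show the regions upstream of the genes the results turn on, 250 bases before the annotated start are printed for P2rx7 and its neighbour P2rx4, and for Entpd3 and Nt5e, which had the largest differences between tissues. The arrays do not measure these sequences. They come from RefSeq on GRCm38.p6, all on the plus strand, and capitals mark a GC box (GGGCGG or its reverse complement) or a CCAAT box (CCAAT or its reverse complement).
P2rx7 (chr5:122643677-122643926): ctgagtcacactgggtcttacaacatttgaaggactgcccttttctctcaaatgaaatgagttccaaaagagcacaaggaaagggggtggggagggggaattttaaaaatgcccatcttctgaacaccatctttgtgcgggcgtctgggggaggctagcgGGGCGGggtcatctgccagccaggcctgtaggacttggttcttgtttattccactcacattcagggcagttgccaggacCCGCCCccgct
P2rx4 (chr5:122707294-122707543): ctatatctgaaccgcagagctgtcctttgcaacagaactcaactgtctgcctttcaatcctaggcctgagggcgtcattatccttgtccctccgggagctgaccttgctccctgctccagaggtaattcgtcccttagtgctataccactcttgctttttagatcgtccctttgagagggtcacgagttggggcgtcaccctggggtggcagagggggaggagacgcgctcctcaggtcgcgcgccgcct
Entpd3 (chr9:120539568-120539817): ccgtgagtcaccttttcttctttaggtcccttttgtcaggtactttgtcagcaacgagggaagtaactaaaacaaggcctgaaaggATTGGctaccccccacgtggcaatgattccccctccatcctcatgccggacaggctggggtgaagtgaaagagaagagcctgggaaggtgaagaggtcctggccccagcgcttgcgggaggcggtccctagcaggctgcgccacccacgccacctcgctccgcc
Nt5e (chr9:88327359-88327608): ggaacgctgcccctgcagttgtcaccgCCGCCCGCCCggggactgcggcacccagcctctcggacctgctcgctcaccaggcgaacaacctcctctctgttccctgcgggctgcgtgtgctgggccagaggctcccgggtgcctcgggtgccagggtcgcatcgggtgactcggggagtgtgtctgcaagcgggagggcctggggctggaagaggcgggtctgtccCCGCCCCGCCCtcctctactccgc

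The P2rx7 start shown is the more upstream of 2 in the table, the sequence before the other holding none of the motifs. It has 2 GC boxes, Nt5e has 4, of which neighbours overlap, and Entpd3 has 1 CCAAT box, while P2rx4 has neither. No TATA box (TATAAA on either strand) was found in these windows. Among the 32851 promoters of the table, 32.7% held a GC box, 33.8% a CCAAT box and 12.4% a TATA box. GC content was 53.6% for P2rx7, 57.2% for P2rx4, 58.8% for Entpd3 and 72.0% for Nt5e, against a median of 52.4%.

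P2rx7 encodes an ATP-gated channel that opens a large pore and drives inflammasome activation in macrophages. Its brightest probe set, 1439787_PM_at, read 3.62, 3.98, 3.76 and 3.89 (log2) in the CAG42 cerebella, against 4.95, 4.69, 5.02 and 5.15 in the WT cerebella. In brainstem it read 4.27, 4.48, 4.40 and 4.29 in CAG42 mice, against 5.65, 5.64, 5.25 and 5.39 in WT mice. The genotypes did not overlap in either region, which held for 3.94% of all probe sets in cerebellum and 3.7% in brainstem. The differences of the means, CAG42 minus WT, were -1.14 in cerebellum and -1.13 in brainstem, and they are given without a test because they chose the gene. Among all probe sets the group mean stood at percentile 42.5 in CAG42 and 53.8 in WT cerebellum, and at percentile 47.7 in CAG42 and 58.2 in WT brainstem.

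Liver did not enter the choice, but its arrays may come from the same mice as the brain arrays, so it is no independent check. There the same probe set read 3.35, 3.57, 3.29 and 3.31 in CAG42 mice, against 4.48, 3.77, 3.58 and 4.42 in WT mice. The groups did not overlap, although the highest CAG42 and the lowest WT value lay close together and the WT livers fell into a higher and a lower pair. The difference of -0.68 (SE 0.16) missed the threshold across all probe sets (adjusted p = 0.102, limma). It passed in 2 of the 8 fits that left out 1 liver array, at -0.54 without WT replicate 1, the array that stood apart (adjusted p = 0.0363), and at -0.84 without WT replicate 3 (adjusted p = 0.0144), while the adjusted p reached 0.240 without CAG42 replicate 3. With only the liver arrays in the fit the adjusted p was 1.00. Over all probe sets, the share that passed in this comparison was 0.147%, and 6.39% without WT replicate 1, and 2.76% had groups that did not overlap.

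The other 2 probe sets of P2rx7 did not show a difference of that size. In the brain regions their group means stood lower among all probe sets, at percentiles 23.1 to 34.2 for 1422218_PM_at and 17.95 to 39.4 for 1419853_PM_a_at. In liver 1422218_PM_at stood higher than 1439787_PM_at, at percentiles 51.3 in CAG42 and 52.5 in WT mice, against 27.1 and 46.7. There 1419853_PM_a_at stood at percentiles 33.4 in CAG42 and 30.1 in WT mice. Probe set 1422218_PM_at averaged 3.30 ± 0.10 in CAG42 and 3.37 ± 0.11 in WT cerebellum, 3.11 ± 0.22 and 3.15 ± 0.10 in CAG42 and WT brainstem, and 4.22 ± 0.11 and 4.33 ± 0.16 in CAG42 and WT liver (log2, SD, n = 4). Probe set 1419853_PM_a_at averaged 2.96 ± 0.10 in CAG42 and 3.29 ± 0.13 in WT cerebellum, where the genotypes did not overlap, and 3.54 ± 0.12 in CAG42 against 3.72 ± 0.22 in WT brainstem, where they did. Their differences were -0.07 and -0.33 in cerebellum and -0.04 and -0.18 in brainstem. In liver they were -0.11 (adjusted p = 0.847) and 0.04 (adjusted p = 0.970), with 95% intervals of -0.32 to 0.10 and -0.22 to 0.31. The unweighted mean of the 3 probe sets differed by -0.51 in cerebellum, -0.45 in brainstem and -0.25 in liver, in each case a smaller value than that of 1439787_PM_at. No probe sequences were used here, so the exons read by each probe set are not given.

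**Figure D1:**
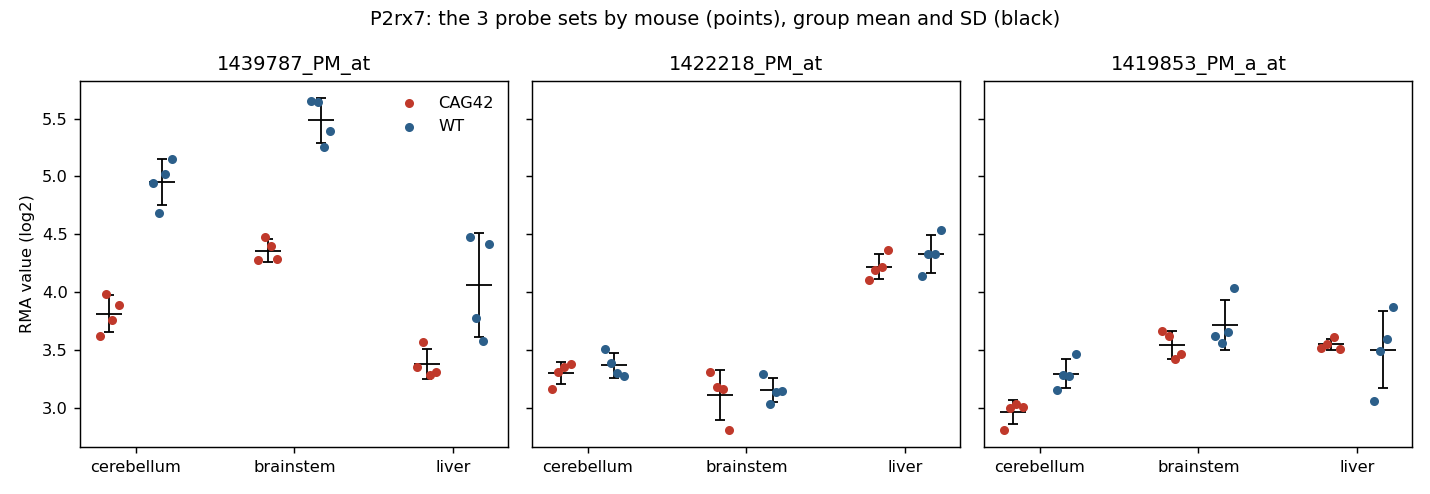
RMA values (log2) of the 3 P2rx7 probe sets in each mouse, by tissue, with CAG42 (red) left of WT (blue) and the group mean and SD in black (n = 4). In 1439787_PM_at the CAG42 arrays lie at 3.62 to 3.98 in cerebellum and 4.27 to 4.48 in brainstem, below all WT arrays there (4.69 to 5.15 and 5.25 to 5.65), while the CAG42 and WT arrays of 1422218_PM_at overlap in every tissue.

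P2rx4 lies directly beside P2rx7 on chromosome 5, with no protein-coding gene between them and 18 between Atxn2 and P2rx7. It encodes another ATP-gated channel, abundant in microglia and macrophages. Its brightest probe set, 1425525_PM_a_at, averaged 7.83 ± 0.08 in CAG42 and 8.01 ± 0.07 in WT cerebellum. The brainstem means were 7.53 ± 0.04 in CAG42 and 7.49 ± 0.08 in WT mice, and the liver means 8.32 ± 0.46 in CAG42 and 8.50 ± 0.37 in WT mice. The genotypes overlapped in each tissue, and the differences of -0.17 (95% interval -0.52 to 0.17), 0.04 (-0.30 to 0.38) and -0.17 (-0.52 to 0.17) did not pass. Differences in cerebellum, brainstem and liver were -0.07, 0.30 and -0.09 for 1 of its other probe sets and -0.08, 0.04 and -0.16 for the remaining one, none past the threshold. Of the other genes next to the pair, Anapc7, Atp2a2, Ift81, Camkk2, Anapc5 and Rnf34, none passed in any tissue. Ift81, an intraflagellar transport gene, came nearest, with differences of 0.36, 0.22 and 0.60 in cerebellum, brainstem and liver (adjusted p = 0.0771 in liver).

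P2ry1 and P2ry12 encode ADP receptors, the second of them a marker of microglia in brain that also acts on platelets. P2ry1 ranged between 3.24 and 3.47 in CAG42 and between 3.29 and 4.22 in WT cerebellum, and its differences were -0.33 (95% interval -0.73 to 0.08), -0.09 (-0.50 to 0.31) and -0.40 (-0.80 to 0.01) in cerebellum, brainstem and liver. P2ry12 read 4.91, 4.37, 4.76 and 4.64 in CAG42 and 4.68, 5.36, 4.72 and 4.83 in WT cerebella, and 6.52, 6.45, 6.03 and 7.14 in CAG42 and 6.89, 5.90, 5.46 and 6.47 in WT brainstems. The genotypes overlapped in both regions. Its differences were -0.23 (-0.75 to 0.29), 0.35 (-0.17 to 0.88) and -0.36 (-0.88 to 0.16) in cerebellum, brainstem and liver. None of these 6 differences passed the test, the lowest adjusted p being 0.600, for P2ry1 in liver.

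Entpd3 encodes NTPDase3, a neuronal and endocrine member of the enzymes that hydrolyse extracellular ATP and ADP. Its only probe set read 4.03, 3.93, 4.32 and 4.19 in CAG42 cerebella, against 4.36, 4.61, 4.70 and 4.75 in WT cerebella. The difference of -0.49, with groups that lay side by side without overlap (highest CAG42 4.32, lowest WT 4.36), is given without a test, since it chose the gene. In brainstem it read 6.81, 6.76, 6.82 and 6.73 in CAG42 mice and 7.09, 6.86, 6.86 and 6.88 in WT mice. These did not overlap either, but the difference of -0.14 (SE 0.09, adjusted p = 1.00, 95% interval -0.33 to 0.05) did not pass. In liver the means were 4.18 ± 0.07 in CAG42 and 4.09 ± 0.07 in WT mice, a difference of 0.09 (-0.10 to 0.28). Whether the genotype difference varied among the 3 tissues was tested for the members other than P2rx7 and Entpd3, whose values in it chose them. None of these 11 probe sets passed, and 0.0111% of all probe sets did.

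Entpd1 encodes CD39, the main ATP- and ADP-degrading enzyme of leukocytes and blood vessels, and Entpd2 an enzyme that prefers ATP. Entpd1 averaged 3.36 ± 0.19 in CAG42 and 3.41 ± 0.27 in WT cerebellum, 3.99 ± 0.15 in CAG42 and 4.24 ± 0.13 in WT brainstem, and 4.51 ± 0.33 in CAG42 and 4.85 ± 0.38 in WT liver by 1423326_PM_at. Its second probe set differed by 0.12, 0.11 and -0.02 in the 3 tissues, so the direction in the brain regions was not shared by the 2 probe sets. Entpd2 averaged 5.97 ± 0.19 in CAG42 and 6.04 ± 0.09 in WT cerebellum and 7.26 ± 0.10 in CAG42 and 7.20 ± 0.08 in WT brainstem. Its liver means were 4.80 ± 0.09 in CAG42 and 5.13 ± 0.68 in WT mice. The extremes of the WT livers were WT replicate 1 at 5.94 and WT replicate 3 at 4.30, the first of which stood apart. Nt5e, which makes adenosine from AMP, differed by -0.08, -0.11 and -0.07 in cerebellum, brainstem and liver by its brightest probe set, with 95% intervals inside -0.43 to 0.26.

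Across the 15 probe sets, 2 in cerebellum, 1 in brainstem and 0 in liver passed an adjusted p of 0.05 for CAG42 minus WT (limma). At an unadjusted p under 0.05 there were 3, 1 and 1, against 1617, 1877 and 3876 of all 45037 probe sets. The 2 and the 1 past the adjusted threshold are those that chose the genes, so nothing is read from them. The additional cerebellar probe set at an unadjusted p was P2rx7 1419853_PM_a_at, also of a gene chosen in cerebellum, and is not read either. Over all probe sets, 0.0444%, 0.0155% and 0.147% passed in cerebellum, brainstem and liver. Without P2rx7 and Entpd3, the median difference was -0.07, 0.04 and -0.16 in the same tissues, against -0.01 in each for all probe sets, and 10, 4 and 10 of 11 lay below 0, against 52.4%, 53.8% and 52.7% of all probe sets. The 11 include 3 probe sets each of P2rx4 and Nt5e and 2 of Entpd1, so they are not 11 genes. In liver without WT replicates 1 and 3 (chosen after seeing the data), Nt5e 1428547_PM_at and 1422974_PM_at turned to 0.32 and 0.33. P2rx4 1441772_PM_at turned to 0.03 there, and the rest kept their sign. Of these 11, 0 passed in each tissue, also at an unadjusted p under 0.05, and the ends of their 95% intervals lay within -0.75 to 0.52 for cerebellum, -0.60 to 0.88 for brainstem and -0.88 to 0.42 for liver. A p that misses the threshold does not show that the genotypes had equal levels.

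**Figure D2:**
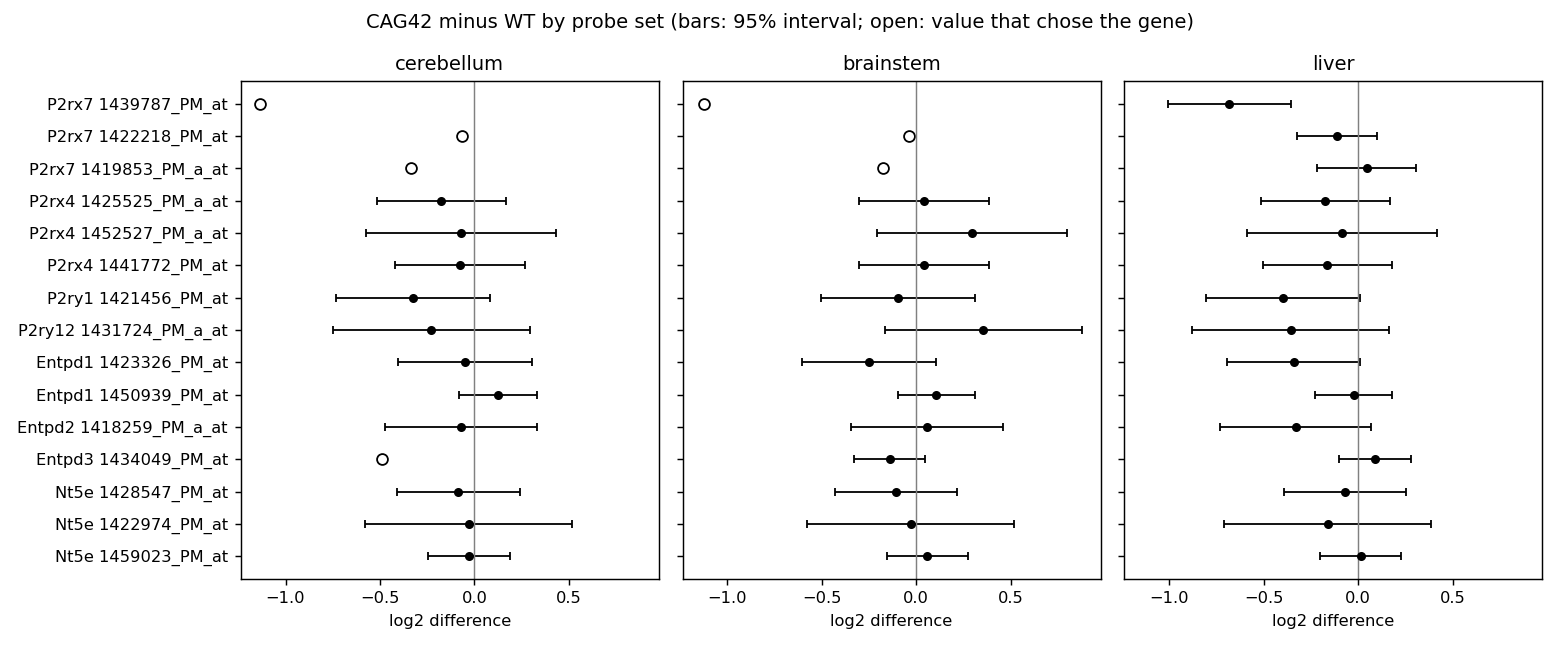
Difference CAG42 minus WT (log2) of the 15 probe sets in cerebellum, brainstem and liver, from limma over all 24 arrays. Filled points carry 95% intervals and open points are the values that chose P2rx7 and Entpd3, shown without an interval. P2rx7 1439787_PM_at lies at -1.14, -1.13 and -0.68, and the other P2rx7 probe sets lie between -0.33 and 0.04.

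Markers of the cell types that these genes are known from were compared in the same way. Of 9 measured microglial genes other than P2ry12, 0 passed in any tissue (limma), with 1, 0 and 0 at an unadjusted p under 0.05 and median differences of 0.19, 0.03 and 0.02 in cerebellum, brainstem and liver. Their summed levels were 10.1 to 10.4 in CAG42 and 9.83 to 10.3 in WT cerebellum, 11.2 to 11.4 in CAG42 and 11.1 to 11.5 in WT brainstem, and 10.7 to 12.0 in CAG42 and 10.7 to 11.7 in WT liver (log2 of the sum). Of 6 Kupffer cell genes, the macrophages of liver, Cd163 alone passed in liver (-1.20, adjusted p = 0.00295). Erythrocyte genes, 3 measured, had median differences of 0.62, 0.57 and 0.42 in cerebellum, brainstem and liver, with 2, 3 and 1 at an unadjusted p under 0.05. Choroid plexus genes, 6 measured, had a median of 0.49 in cerebellum, with 2 at an unadjusted p under 0.05. Among all named genes, 567, 560 and 1706 of 17097 were under 0.05 unadjusted in cerebellum, brainstem and liver. None of the erythrocyte and choroid plexus genes passed the adjusted threshold between genotypes. RNA integrity was read from the array's Gapdh controls, as their 3′ value minus 5′ value. In brainstem it was -0.034 to 0.01339 in CAG42 and 0.01343 to 0.080 in WT mice, so the genotypes narrowly did not overlap. In cerebellum it was -0.156 to -0.023 in CAG42 and -0.132 to -0.017 in WT mice. In liver it was 0.212 to 0.305 in CAG42 and 0.124 to 0.279 in WT mice. The part of these in the P2rx7 and Entpd3 values was not tested.

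The tissues differed in nearly all members, as they did in most genes of the array. Averaged over the genotypes, 12 of the 15 probe sets passed between cerebellum and brainstem (2 higher and 10 lower in cerebellum), 15 between cerebellum and liver (4 higher, 11 lower) and 14 between brainstem and liver (4 higher, 10 lower). Over all probe sets the shares that passed were 58.3%, 86.7% and 86.3%, so most of the array also passed. In the higher and lower direction they were 23.3% and 35% for cerebellum minus brainstem, 46.7% and 40% for cerebellum minus liver, and 49.1% and 37.1% for brainstem minus liver. The median member difference was -0.37, -0.49 and -0.54 in these comparisons, against -0.07, 0.08 and 0.16 for all probe sets. These counts take several probe sets of 1 gene separately. By the brightest probe set of each gene, all 8 passed in each comparison, with 1 higher and 7 lower, 4 and 4, and 4 and 4. Of named genes, 61.3%, 88.9% and 89.1% passed. The medians by gene were -0.63, -0.13 and 0.32, against -0.14, 0.13 and 0.33 for named genes. The Gapdh 3′ minus 5′ value was -0.156 to 0.080 in the brain arrays and 0.124 to 0.305 in the livers, and its part in the differences was not tested. With each array centred on its median, the tissue differences shifted by a median of 0.09, -0.33 and -0.42 in the same order, and the share of calls in the higher direction over all probe sets was 51.5%, 42.4% and 41.8%, against 39.9%, 53.9% and 56.9% without centring.

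**Figure D3:**
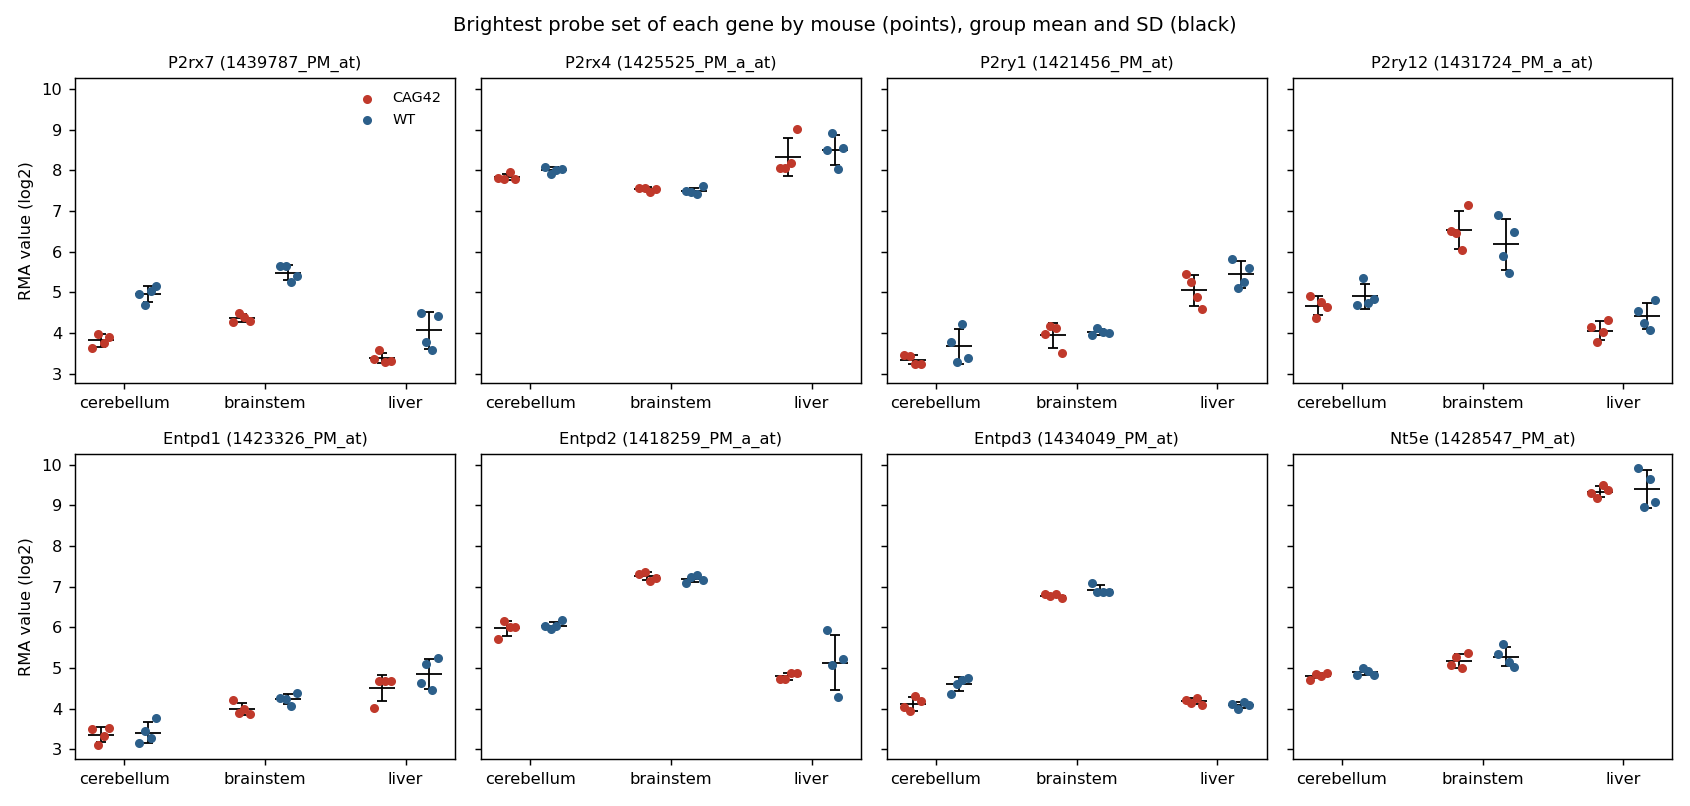
RMA values (log2) of the brightest probe set of each of the 8 genes in every mouse, by tissue, with CAG42 (red) left of WT (blue) and mean and SD in black (n = 4). Levels may be compared between tissues within a panel and not between panels, since probe sets differ in their brightness. Nt5e lies at 5.59 or less in every brain array and at 8.95 or more in every liver, and Entpd3 lies at 6.73 or more in every brainstem and at 4.75 or less elsewhere.

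Nt5e had the largest tissue difference of the members. By 1428547_PM_at it read 4.71 to 4.88 in CAG42 and 4.83 to 4.99 in WT cerebella and averaged 5.17 ± 0.17 in CAG42 and 5.28 ± 0.25 in WT brainstems. The livers read 9.31, 9.18, 9.49 and 9.37 in CAG42 and 9.92, 8.95, 9.66 and 9.09 in WT mice. Cerebellum minus liver was -4.51 (SE 0.11, adjusted p = 1.72e-21, limma) and brainstem minus liver was -4.14 (adjusted p = 9.85e-21), so that liver stood 22.9-fold above cerebellum and 17.7-fold above brainstem. All 3 probe sets agreed that liver was highest, but the size differed among them: 1422974_PM_at gave -1.88 and -2.00 for cerebellum and brainstem minus liver, and 1459023_PM_at, which was near the dim end of the arrays, gave -0.63 and -0.44. Between cerebellum and brainstem the direction was not shared, with -0.37, 0.12 and -0.19 in the same order of probe sets. The second did not pass, and the value of 1459023_PM_at was -0.099 with centred arrays (adjusted p = 0.283, against 0.0314 without).

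Entpd3, Entpd2 and P2ry12 were highest in brainstem. Entpd3 was at 6.73 to 6.82 in CAG42 and 6.86 to 7.09 in WT brainstems, and differed by -2.49 (SE 0.06, adjusted p = 1.23e-19) for cerebellum minus brainstem and 2.72 (adjusted p = 9.04e-22) for brainstem minus liver. Cerebellum and liver stood close, with a difference of 0.23 (adjusted p = 0.00224) that turned to -0.10 with centred arrays and was -0.060 in CAG42 and 0.52 in WT arrays alone. Entpd2 differed by -1.22 (adjusted p = 4.75e-08) for cerebellum minus brainstem, by 2.26 (adjusted p = 1.59e-13) for brainstem minus liver and by 1.04 (adjusted p = 2.07e-07) for cerebellum minus liver. P2ry12 differed by -1.57 (adjusted p = 5.35e-08) for cerebellum minus brainstem and by 2.12 (adjusted p = 8.14e-11) for brainstem minus liver, while cerebellum minus liver was 0.55 (adjusted p = 0.00655) and 0.22 with centred arrays (adjusted p = 0.258).

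Like P2ry12, 9 of 9 microglial genes were lower in cerebellum than in brainstem, with a median difference of -1.06, against 43.6% of named genes. This was not particular to microglia: 4 of 4 oligodendrocyte genes, 5 of 5 endothelial genes and 4 of 6 choroid plexus genes were also lower. Of 5 astrocyte genes 3 were lower and 1 was higher. Between brainstem and liver, 2 of the 9 passed, both higher in brainstem: Cx3cr1, the fractalkine receptor, by 4.63, and Trem2, a lipid receptor, by 2.51. The summed list was 11.1 to 11.5 in brainstem and 10.7 to 12.0 in liver over both genotypes. Its part in the P2ry12 difference was not tested.

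P2rx4, P2ry1 and Entpd1 were highest in liver. P2ry1 differed by -1.74 (adjusted p = 3.52e-11) for cerebellum minus liver, -1.26 (adjusted p = 1.18e-08) for brainstem minus liver and -0.48 (adjusted p = 0.00526) for cerebellum minus brainstem. Entpd1 gave -1.30, -0.57 and -0.73 in the same order by 1423326_PM_at and -0.72, -0.45 and -0.27 by its second probe set, all past the threshold, so both gave the order liver, brainstem, cerebellum. P2rx4 gave -0.49, -0.90 and 0.41 by its brightest probe set, and the other 2 had the same signs (-0.41, -0.78 and 0.37, and -0.41, -0.54 and 0.13), the difference between cerebellum and brainstem passing in the brightest only. For 1452527_PM_a_at it passed with the replicate number as a block (adjusted p = 0.00103) and with centred arrays (0.0330), against 0.0686. The summed Kupffer cell genes were 6.05 to 6.62 in the brain regions and 11.1 to 12.7 in liver (log2), and their part was not tested.

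P2rx7 had no tissue order on which its probe sets agreed. By 1439787_PM_at it was highest in brainstem and lowest in liver, with -0.54 for cerebellum minus brainstem (adjusted p = 0.000211), 0.66 for cerebellum minus liver (adjusted p = 7.89e-06) and 1.20 for brainstem minus liver (adjusted p = 5.32e-10). By 1422218_PM_at it was highest in liver, with 0.20 (adjusted p = 0.0207), -0.94 (adjusted p = 1.50e-11) and -1.14 (adjusted p = 3.68e-13). By 1419853_PM_a_at the values were -0.50, -0.40 and 0.10, the last without passing (adjusted p = 0.279), and the last turned to -0.32 with centred arrays (adjusted p = 0.00134). The mean over the 3 probe sets was -0.23 for cerebellum minus liver, the opposite direction of the brightest one, and 0.05 for brainstem minus liver (adjusted p = 0.404). Within genotype, brainstem minus liver by 1439787_PM_at was 0.98 in CAG42 and 1.42 in WT arrays.

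**Figure D4:**
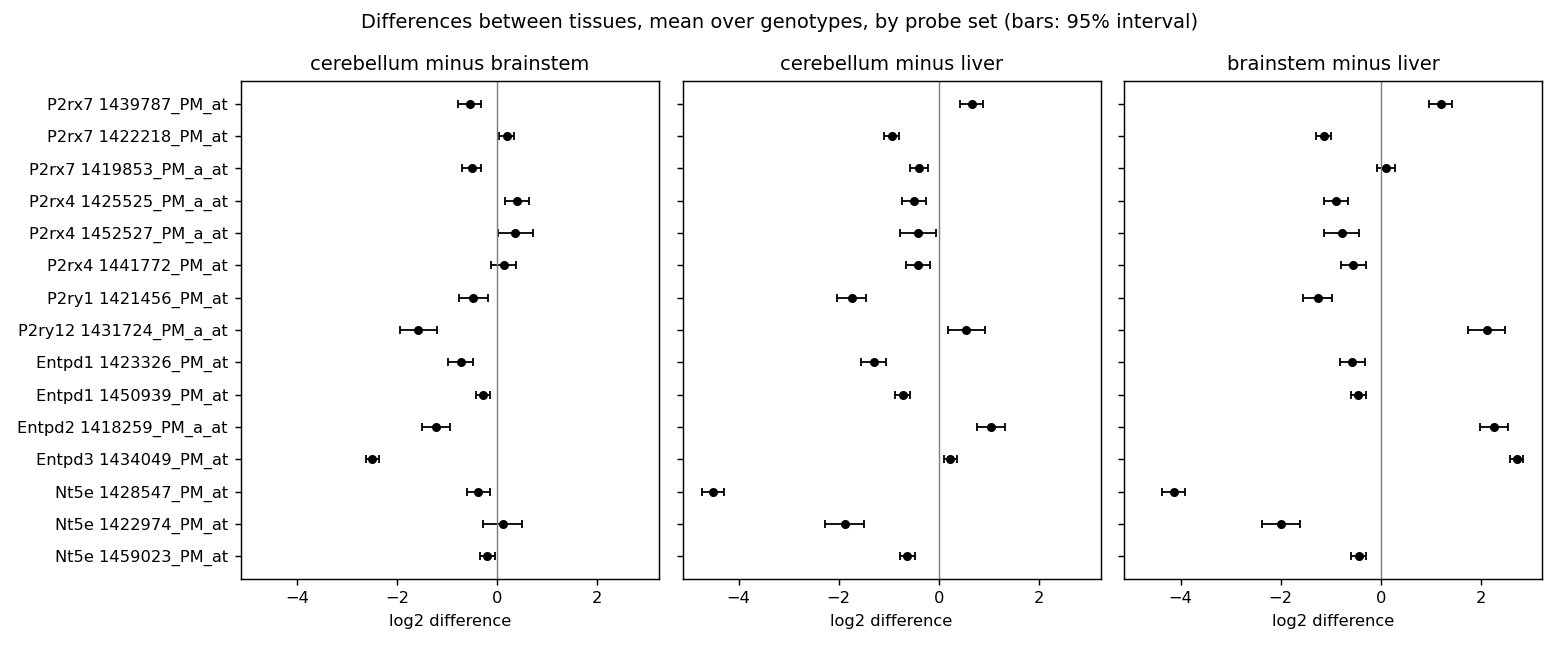
Differences between tissues (log2, mean over both genotypes) of the 15 probe sets with 95% intervals, for cerebellum minus brainstem, cerebellum minus liver and brainstem minus liver. The 3 Nt5e probe sets lie below 0 in both comparisons with liver (-4.51 to -0.44), while the P2rx7 probe sets lie on both sides of 0.

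Each member's most similar named genes were taken by Pearson r over the 24 arrays, which share the tissue groups and mostly show tissue. Nt5e was most like Kynu (r = 0.996), a liver enzyme of tryptophan breakdown, Entpd3 like Camkv (0.990), Entpd2 like Pdss2 (0.985), P2ry1 like Lpin2 (0.956) and P2ry12 like Eif2s3x (0.955). Entpd1 was most like Trpt1 (0.926) and P2rx4 like Prkab1 (0.906). The lowest likeness was that of P2rx7, whose nearest gene was D11Wsu47e at 0.853.

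Of 33 further genes of the system (other P2X, P2Y and adenosine receptors, other nucleotide enzymes, transporters and ATP release channels), 29 were measured. Between genotypes 0 passed in each tissue (limma), with 2, 0 and 0 at an unadjusted p under 0.05 and median differences of 0.07, 0.02 and -0.03 in cerebellum, brainstem and liver. Among named genes 0.0409%, 0.00585% and 0.228% passed, and 567, 560 and 1706 of 17097 had an unadjusted p under 0.05. Between tissues, 1 was higher and 17 were lower in cerebellum than in brainstem, 7 higher and 20 lower in cerebellum than in liver, and 11 higher and 17 lower in brainstem than in liver, against 61.3%, 88.9% and 89.1% of named genes passing in either direction. The named genes higher and lower were 17.7% and 43.6%, 48.4% and 40.5%, and 53.8% and 35.4% in the same comparisons. The 4 with the largest differences between cerebellum and brainstem were Panx1 (-3.35), a channel that releases ATP, P2rx5 (-2.18), Gpr17 (-1.63) and P2ry13 (-1.39). Between cerebellum and liver they were Entpd8 (-5.35), Enpp3 (-4.21), Panx2 (3.73) and Slc29a1 (-2.53), a nucleoside transporter, and between brainstem and liver Entpd8 (-5.40), Panx2 (4.42), Enpp3 (-3.94) and Panx1 (3.12).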

How the data were processed

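Total RNA from cerebellum, brainstem and liver was hybridised to Affymetrix MOE430 2.0 arrays. The methods name this array, while the probe set names are those of its PM-only version. The authors deposited RMA values on a log2 scale, made with R 2.7.0, from 24 arrays; array number, not depth, limits the precision. Of 45141 probe sets, 104 controls were left out, and 28898 of the rest had 1 annotated gene. No build is given for the values in the sources used here; sequences come from RefSeq on GRCm38.p6.

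One limma (3.58.1, R 4.3.3) model was fitted over all arrays with 1 mean per tissue and genotype, and p-values were Benjamini-Hochberg adjusted over all 45037 probe sets, at a threshold of 0.05. The brightest probe set, by its mean over all 24 arrays, stands for a gene. Named were all members, and of other pathway genes the 4 largest tissue differences. The members and lists were chosen with earlier results of these data known. The fit was tested on simulated data and recovered 44% of changes of 0.5 and 98% of 1 (log2) in cerebellum. There 50 probe sets were changed at each of 0.5, 1, 2 and 4, with noise independent between arrays and no shared mouse or outlying array. The shares hold for that setting and may be lower in the real arrays.

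Same-numbered arrays of cerebellum and brainstem deviated together in all 8 pairs (r 0.224 to 0.375), as arrays from the same mice would. For cerebellum and liver r was 0.078 to 0.285, and for brainstem and liver 0.042 to 0.161. Within genotype, the same number was the best match in 8 of 8 pairs for each pair of tissues. The main fit has no term for the mouse. With the replicate block, 13, 15 and 14 member probe sets passed between tissues, against 12, 15 and 14. The labels do not say that separate animals gave the replicates; the study counts 4 mice per group. Alternatives were arrays of 1 comparison only, blocks, a filter on dim probe sets, centring, array weights and arrays left out.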

Additional observations from a re-analysis of the deposited data

Results flagged for a closer look

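In 6 of 90 groups of 4 arrays, 1 array lay apart from the other 3 by more than Dixon's critical value for 4 samples; chance flags about 1 in 20 groups. P2rx4 1425525_PM_a_at had 3 of them, all among CAG42 arrays: cerebellum replicate 3 at 7.95 (others 7.79 to 7.80), brainstem replicate 3 at 7.47 (others 7.55 to 7.56) and liver replicate 4 at 9.01 (others 8.05 to 8.17). Entpd1 1423326_PM_at was 4.02 in CAG42 liver replicate 1, where the other arrays had 4.67 to 4.68. Entpd3 was 7.09 in WT brainstem replicate 1, where the others had 6.86 to 6.88. Nt5e 1459023_PM_at was 3.73 in WT liver replicate 1, where the others had 3.39 to 3.45.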

How the results depend on the processing

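Of the 20 probe sets called in cerebellum 2 were members, by the values that chose P2rx7 and Entpd3. Member counts in the brain regions therefore only describe the calls and are no support for these genes. The cerebellum count was 1 with only the arrays of the comparison and 1 with a random block of genotype and number. It was 1 with each array centred on its median, and 1 to 2 with 1 array left out. In brainstem it was 1 throughout the fits without 1 array, and in liver the count of 0 became 0 to 1, the 1 being P2rx7 without WT replicate 1 or 3, and 1 without replicates 1 and 3 together (chosen after seeing the data). The Entpd3 value in cerebellum, which chose the gene, lay within -0.57 to -0.43 in the fits without 1 array. It was called in only 2 of these 8 fits. Numbers of CAG42 and WT arrays share only a number: with the replicate block 0 members were called in cerebellum and 0 in brainstem, and 0, 4 and 0 probe sets over the arrays in cerebellum, brainstem and liver. Whole-array calls in liver were 2878 without WT replicate 1, 640 without replicates 1 and 3, 231 with array weights and 0 with only liver arrays, against 66; in cerebellum 32 with weights, 10 with only cerebellum arrays and 9 to 19 with 1 array left out, against 20; in brainstem 25 with weights against 7. The interaction gave 63 without WT liver replicate 1 and 37 without replicates 1 and 3, against 5.

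Between tissues, the filter on dim probe sets left 9 member probe sets to test and 7, 9 and 9 calls for cerebellum minus brainstem, cerebellum minus liver and brainstem minus liver. The fits without 1 array gave 11 to 12, 14 to 15 and 14 to 14. Calls lost there were P2rx7 1422218_PM_at for cerebellum minus brainstem without CAG42 brainstem replicate 4, Nt5e 1459023_PM_at for the same in 6 of 16 fits (cerebellum WT replicates 2 and 3 and CAG42 replicate 1, brainstem WT replicates 1 and 4 and CAG42 replicate 1) and P2rx4 1452527_PM_a_at for cerebellum minus liver in 4 of 16 (liver WT replicates 1 and 2 and CAG42 replicate 4, cerebellum CAG42 replicate 4). Entpd3 for cerebellum minus liver was -0.10 with centred arrays, a setting that shifted this comparison by a median of -0.33. It was -0.060 in CAG42 arrays alone, and its gap to the WT arrays contains the cerebellum difference that chose the gene. With centred arrays P2rx7 1419853_PM_a_at for brainstem minus liver was -0.32. Of the other values of brightest probe sets, those that chose the genes aside, 876 kept direction and side of the threshold, 5 lost and 2 gained the call. The values that chose P2rx7 lay within -1.22 to -1.07 in cerebellum and -1.20 to -1.07 in brainstem in the fits without 1 array. Because they chose the gene, no count of passed settings is read from them. With all probe sets of a gene averaged, 2 tissue calls were lost: Nt5e for cerebellum minus brainstem (adjusted p = 0.213, limma) and P2rx7 for brainstem minus liver (0.404). P2rx7 for cerebellum minus liver turned to -0.23. Between genotypes, members other than P2rx7 and Entpd3 gained no call.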
